A study of Mus musculus with 48 samples.

Results

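The genes described here encode the core proteins, link proteins and hyaluronan synthases of the perineuronal net: the 4 lecticans Acan, Bcan, Ncan and Vcan, the link proteins Hapln1, Hapln2 and Hapln4, tenascin-R (Tnr), and the synthases Has2 and Has3. They were chosen by name, with earlier results of these data known, as 10 rows of a count table of 55357 mouse genes. All 10 were among the 21390 genes tested. RNA was sequenced from the dorsal dentate gyrus of 24 adult wild-type C57BL/6J mice, which received kainate or saline by injection into 1 hippocampus and were taken at 3, 7 or 14 days. Each of the 6 combinations of injection and day held 4 mice, 2 male and 2 female per the study's methods. Both sides of every mouse gave a library, so that 48 libraries fell into 12 groups of 4. The injected side is called the epileptogenic zone (EZ) and the opposite side the peri-ictal zone (PIZ). Kainate is a glutamate receptor agonist that induces status epilepticus. The saline mice carried the same needle injury on the EZ side, and all groups shared strain and surgery.

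A perineuronal net is a lattice of extracellular matrix that wraps the cell body and proximal dendrites of certain neurons, most often parvalbumin interneurons and, in the hippocampus, CA2 pyramidal cells. Hyaluronan made at the membrane forms its backbone, the chondroitin sulfate proteoglycans of the lectican family bind that backbone through link proteins, and tenascin-R ties the lecticans together at their other end. Aggrecan (Acan) is the lectican most closely tied to compact nets, whereas brevican (Bcan) and neurocan (Ncan) are also found in the loose matrix between cells, with astrocytes as a main source, and versican (Vcan) is made largely by cells of the oligodendrocyte lineage.

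The libraries held 17762656 to 25712975 counts each (median 22108562.5). Levels are given as CPM, the counts relative to a library total scaled by the trimmed mean of M-values (TMM), and per kb of exon where genes are set against each other. The exon length joins all annotated exons of a gene, so the order between genes depends on it. A gene was called where its fold change passed 1.5 and edgeR's quasi-likelihood test gave an adjusted p (Benjamini-Hochberg) below 0.01. Prox1, the granule cell transcription factor, a defining marker of the labelled tissue, lay between 84.0 and 334.6 CPM in every library, and the choroid plexus gene Ttr did not pass 2.96 CPM. One library stood apart from its group, the EZ of kainate mouse 27 at day 14, and results that rest on it are given with and without that mouse. The day 7 kainate EZ libraries of mice 21 and 35 also stood apart by their marker lists, with granule cell genes summing to 201.2 and 340.6 CPM against 944.2 and 907.2 CPM in mice 23 and 26. A fit without both mice was added after these values were seen. In 4 PIZ libraries (mouse 18, saline, day 3; mouse 21, kainate, day 7; mouse 27, kainate, day 14; mouse 39, saline, day 14) the summed level of the mossy cell genes Calb2, Calcrl and Drd2 was 55.7 to 119.1 CPM, against 16.3 to 34.6 CPM in the other PIZ libraries of those groups. The same 4 libraries had the lowest Acan of their groups, at 4.13, 5.12, 4.54 and 2.74 CPM. The part of tissue make-up in that was not tested. In bulk tissue, fewer cells of a type and less RNA per cell cannot be told apart.

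In saline mice the order of levels per kb of exon was led by Tnr, with a median of 26.5 CPM per kb over the 24 saline libraries (22.2 to 30.3), followed by Bcan at 24.5 (20.1 to 28.4), Ncan at 21.5 (17.6 to 25.7) and Hapln4 at 21.3 (14.0 to 32.7). These 4 ranges overlapped, so their order is not resolved library by library. Hapln1 came next at 4.64 CPM per kb (3.25 to 6.76), below all 4. Vcan (1.57), Acan (1.39) and Hapln2 (1.18) formed a low group with overlapping ranges. The hyaluronan synthases had the lowest medians, with Has3 at 0.468 and Has2 at 0.061 CPM per kb, and their ranges (0.163 to 0.831 and 0.009 to 0.111) did not meet. Averaged over days 3, 7 and 14, the saline EZ and PIZ did not differ in any of the 10 genes at the threshold. There were 0 called by edgeR (0.0234% of all genes tested) and 0 by DESeq2, with 1 at an unadjusted p under 0.05 (8.92% of all genes). The lowest p was that of Hapln2, with a log2 difference of 0.36 (95% interval 0.02 to 0.70, adjusted p = 0.551). The saline sides were not tested on single days. At day 3 saline Ncan was 227.4 to 256.5 CPM in the EZ and 188.7 to 222.5 CPM in the PIZ, without overlap. At day 7 the saline Ncan ranges overlapped, at 182.8 to 218.8 CPM and 193.5 to 226.0 CPM.

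The 4 lecticans are shown first by their promoters, since under a single treatment 3 of them rose and 1 fell. The windows are RefSeq sequences of build GRCm38.p6, 250 bases before to 50 bases after the start of transcription, printed 5′ to 3′ on the gene's strand. Capitals mark the GC box GGGCGG in either orientation, which is CCGCCC when read on the opposite strand. The positions are chr7:79052976-79053275 (plus strand) for Acan, chr8:70120795-70121094 (minus) for Ncan, chr13:89742463-89742762 (minus) for Vcan and chr3:88000307-88000606 (minus) for Bcan.
Acan promoter: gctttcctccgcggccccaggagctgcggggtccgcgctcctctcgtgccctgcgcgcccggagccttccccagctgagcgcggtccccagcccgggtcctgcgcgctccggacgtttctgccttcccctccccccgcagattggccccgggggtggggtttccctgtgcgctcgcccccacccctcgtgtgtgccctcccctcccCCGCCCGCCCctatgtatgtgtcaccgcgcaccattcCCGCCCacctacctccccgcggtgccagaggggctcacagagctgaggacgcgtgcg
Ncan promoter: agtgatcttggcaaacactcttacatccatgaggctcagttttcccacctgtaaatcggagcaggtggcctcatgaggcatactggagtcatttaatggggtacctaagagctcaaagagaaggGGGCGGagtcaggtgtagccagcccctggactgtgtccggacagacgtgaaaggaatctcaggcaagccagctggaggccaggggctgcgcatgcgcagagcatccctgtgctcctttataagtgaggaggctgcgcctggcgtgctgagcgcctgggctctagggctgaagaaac
Vcan promoter: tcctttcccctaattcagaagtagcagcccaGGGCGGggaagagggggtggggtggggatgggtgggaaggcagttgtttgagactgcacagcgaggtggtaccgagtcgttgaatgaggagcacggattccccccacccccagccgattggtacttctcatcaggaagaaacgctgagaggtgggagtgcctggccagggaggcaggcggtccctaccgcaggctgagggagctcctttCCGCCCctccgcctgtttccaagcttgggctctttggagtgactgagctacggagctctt
Bcan promoter: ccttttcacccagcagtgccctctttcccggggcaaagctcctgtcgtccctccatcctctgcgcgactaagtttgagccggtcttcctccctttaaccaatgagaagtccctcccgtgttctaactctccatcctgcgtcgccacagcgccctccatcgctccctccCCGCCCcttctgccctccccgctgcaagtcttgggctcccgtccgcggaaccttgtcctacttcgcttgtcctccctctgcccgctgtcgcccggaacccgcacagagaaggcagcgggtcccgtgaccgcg

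The 4 windows had a GC content of 74% (Acan), 56.7% (Ncan), 61% (Vcan) and 64% (Bcan). The GC box occurred 3 times in Acan, 2 times in Vcan and once each in Ncan and Bcan, and 35.7% of the 32851 promoter windows of the same length held at least 1. Of the 15 motifs searched on both strands, AP-1 (TGANTCA; 7.8% of all windows), CRE (TGACGTCA; 1.8%) and STAT (TTCNNNGAA; 8.3%) were found in none of the 7 gene windows that could be read. The letters TATAAA (13.6%) were found in the Ncan window on the opposite strand only, where the printed sequence reads TTTATA, 11 bases before the annotated start. An NF-kB-like match (GGGNNTTCC; 5.8%) lay in Acan, 95 bases before the start. The rising Acan, Ncan and Vcan thus shared the GC box with the falling Bcan, while Hapln1, Hapln2 and Tnr had none. Such matches describe the letters of a window and are not binding sites.

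At day 3 in the EZ, 8 of the 10 genes were called between kainate and saline, against 24.7% of all genes tested. Acan, Ncan, Vcan and Has2 rose, and Bcan, Hapln1, Hapln4 and Has3 fell, whereas Hapln2 and Tnr did not pass the test. The members' median log2 fold change was -0.155, beside 0.0323 over all genes. For the same 8 genes the 4 kainate values lay wholly on one side of the 4 saline values, as they did for 42.4% of all genes.

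Acan, aggrecan, moved most among the lecticans. In the EZ at day 3 it stood at 8.64, 8.95, 14.04 and 9.06 CPM in the saline mice and at 154, 339, 30.6 and 163 CPM in the kainate mice. The groups did not overlap, but the kainate mice were widely spread, with mouse 44 lowest at 30.6 CPM. The log2 fold change was 4.08 (adjusted p = 5.99e-06, SE 0.66), a 16.8-fold rise. By day 7 the kainate values were 66.1, 137, 96.2 and 247 CPM, all above the saline values of 15.9, 10.9, 11.2 and 10.6 CPM. The log2 fold change was then 3.49 (adjusted p = 1.97e-05, SE 0.64). On the PIZ side at day 3 the kainate values of 8.36, 11.5, 24.6 and 17.9 CPM overlapped the saline values of 10.2, 8.28, 4.13 and 10.9 CPM, and the log2 difference of 0.90 (95% interval -0.31 to 2.10, adjusted p = 0.306) was not called.

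Bcan, brevican, went the other way, and its difference shrank by day 7. The day 3 EZ values were 172, 206, 201 and 195 CPM with saline and 72.6, 62.1, 88.9 and 78.9 CPM with kainate, with no overlap. The log2 fold change was -1.36 (adjusted p = 3.16e-08, SE 0.15), a 2.56-fold fall. At day 7 the kainate values were 183, 180.3, 207 and 165 CPM and reached into the saline range of 197 to 238 CPM, and the log2 difference of -0.27 (95% interval -0.57 to 0.03, adjusted p = 0.123) was not called. The shift of the effect between days 3 and 7 was itself called for Bcan, at 1.08 (adjusted p = 0.00758, SE 0.21), the only one of the 10 genes for which it was (0.145% of all genes). That call was lost without any 1 of mice 18, 20, 21, 29, 33, 34, 35, 37, 38, 41 or 89. It was also lost by library size only and with only the groups compared. The value was between 1.002 and 1.172 in all alternatives run. The PIZ values at day 3 with kainate, 126, 69.02, 88.8 and 180.4 CPM, all lay below the saline values of 189 to 216 CPM, and the log2 fold change was -0.80 (adjusted p = 0.000223, SE 0.15). There the mice were spread more widely, with mouse 30 at 69.0 CPM and mouse 42 at 180.4 CPM. This PIZ call was lost in edgeR with only the groups compared (adjusted p = 0.0291).

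Ncan, neurocan, rose on both sides. In the EZ at day 3 the saline mice had 257, 232, 239 and 227 CPM and the kainate mice 563, 691, 495 and 520.1 CPM. The kainate mice lay close together and far above every saline mouse, with a log2 fold change of 1.25 (adjusted p = 1.87e-08, SE 0.14), or 2.38-fold. Ncan was also higher at day 7, where the kainate values were 421, 485, 463 and 551 CPM against 183 to 219 CPM and the log2 fold change was 1.21 (adjusted p = 2.28e-08, SE 0.14). In the PIZ at day 3 the kainate values of 356, 446, 323 and 361 CPM again cleared the saline range of 189 to 223 CPM, with a log2 fold change of 0.84 (adjusted p = 2.13e-05, SE 0.14). With Bcan, Ncan made up the 2 of 10 genes called in the PIZ at day 3, where 8.69% of all genes were called. Both calls held without mouse 18, the saline mouse with the raised mossy cell list.

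Vcan, versican, rose in the EZ from saline values of 34.9, 31.96, 27.6 and 32.4 CPM to 109, 79.4, 54.98 and 85.97 CPM at day 3. The log2 fold change was 1.38 (adjusted p = 2.4e-05, SE 0.25). At day 7 the kainate mice fell into a lower pair, mice 23 and 26 at 46.2 and 54.2 CPM, and a higher pair, mice 21 and 35 at 111 and 125 CPM. All 4 were above the saline range of 25.3 to 29.04 CPM, with a log2 fold change of 1.64 (adjusted p = 9.71e-07, SE 0.25). The mice with the higher Vcan also had the higher sums of oligodendrocyte precursor genes (764.9 and 722 CPM, against 301.5 and 362.3 CPM in mice 23 and 26), of microglial genes (6469 and 4724 against 1655 and 2442 CPM) and of oligodendrocyte genes (10750 and 7132 against 4165 and 3669 CPM). Has2 and Hapln2 were likewise higher in mice 21 and 35 than in mice 23 and 26. The part of these cells in the values was not tested. Without mice 21 and 35 the log2 fold change of Vcan was 0.899 (adjusted p = 0.00602 in edgeR), still called. On the uninjected side at day 3 the kainate values of 46.3, 49.8, 44.7 and 46.7 CPM were tight and did not overlap the saline range of 24.6 to 29.1 CPM, but at a log2 fold change of 0.84 (adjusted p = 0.011, SE 0.24) Vcan just missed the threshold. It was called there by DESeq2 (adjusted p = 0.00623), by edgeR with library size only (adjusted p = 0.00569) and with only the groups compared (adjusted p = 2.42e-05).

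**Figure D1:**
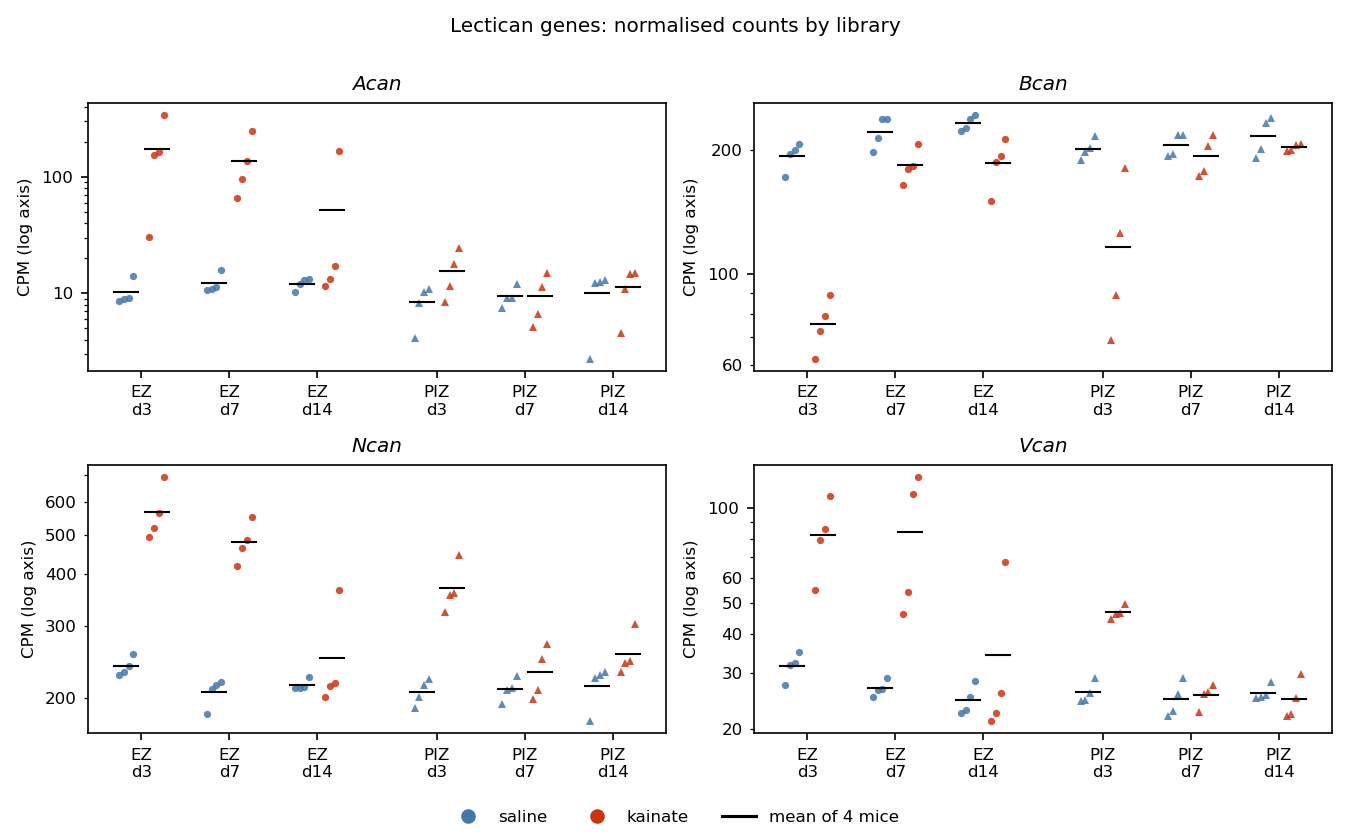
Normalised counts (CPM, log axis) of Acan, Bcan, Ncan and Vcan in each library, by side and day, with saline in blue, kainate in red and the mean of 4 mice as a bar. In the EZ at day 3 the kainate mice lie above every saline mouse for Acan, Ncan and Vcan and below them for Bcan, and at day 14 a single kainate mouse, mouse 27, carries the high Acan (165 CPM), Ncan and Vcan points.

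Set against each other per kb of exon, the lecticans changed in proportion. In the EZ of saline mice at day 3, Bcan made up 45.39% ± 3.02 (SD, n = 4) of the summed lectican level, Ncan 48.10% ± 2.91, Vcan 3.87% ± 0.43 and Acan 2.64% ± 0.62. With kainate, Bcan was 10.24% ± 3.99, Ncan 62.56% ± 7.91, Vcan 5.49% ± 1.44 and Acan 21.71% ± 12.03. Thus Acan went from the least to the second most abundant lectican in the mean, and its share in single kainate mice ran from 5.89% to 35.05%. In kainate mouse 44 Acan was below Bcan (15.42%), and in saline mouse 18 Acan (3.57%) was above Vcan (3.29%). The ranks also depend on the exon lengths used. The ratio of Ncan to Bcan per kb was 1.07 ± 0.143 with saline and 6.66 ± 2.07 with kainate. The day 7 kainate shares were 23.88% ± 5.19 for Bcan and 18.24% ± 7.38 for Acan, and the ratio of Ncan to Bcan was 2.27 ± 0.44. For the PIZ at day 3, Bcan was 50.12% ± 1.41 with saline and 24.03% ± 8.37 with kainate, and Ncan was 44.21% ± 1.6 and 67.12% ± 8.26, while Acan was 2.29% ± 0.77 with saline and 3.71% ± 2.01 with kainate. In mouse 44 the Acan share was 6.54% in the PIZ and 5.89% in the EZ. These shares restate the levels above and were not tested.

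**Figure D2:**
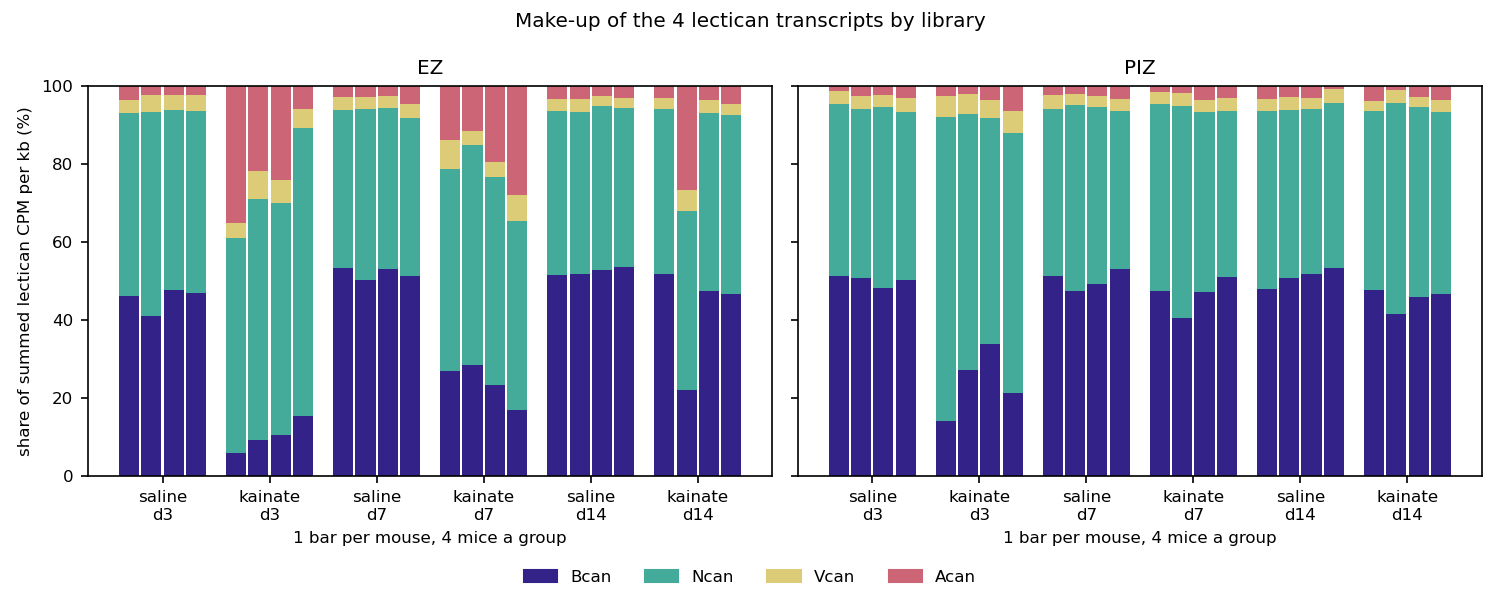
Share (%) of each lectican in the summed lectican CPM per kb of exon, 1 bar per mouse, by side, treatment and day. Acan takes 5.89% to 35.05% in the EZ of kainate mice at day 3, and the Bcan share is low in the EZ at days 3 and 7 and in the PIZ at day 3.

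The link proteins lock a lectican to hyaluronan. Hapln4, also known as Bral2 and found in nets together with brevican, fell most of the 3. In the EZ at day 3 it was at 57.99, 73.5, 116 and 80.6 CPM with saline and 7.77, 13.2, 26.8 and 16.8 CPM with kainate, with no overlap, and the log2 fold change was -2.35 (adjusted p = 2.73e-05, SE 0.42), a 5.08-fold fall. It was as low at day 7, with 23.5, 20.4, 21.7 and 5.14 CPM against 56.1 to 119 CPM and a log2 fold change of -2.40 (adjusted p = 1.09e-05, SE 0.42). For the PIZ at day 3 the kainate values (52.7 to 93.99 CPM) lay within or just under the saline range (61.2 to 131 CPM), and the log2 difference of -0.39 (95% interval -1.17 to 0.40, adjusted p = 0.52) was not called.

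Hapln1, the link protein first known from cartilage, fell less and only the day 3 EZ difference was called. The saline values there were 37.7, 48.2, 31.3 and 39.9 CPM and the kainate values 20.05, 22.04, 28.1 and 18.4 CPM, with a log2 fold change of -0.83 (adjusted p = 7.08e-05, SE 0.16). At day 7 the groups overlapped, at 22.5 to 34.8 CPM with kainate and 23.2 to 33.3 CPM with saline, and the log2 difference was -0.22 (95% interval -0.54 to 0.09, adjusted p = 0.237). Hapln2, a link protein of nodes of Ranvier made by oligodendrocytes, was not called in any comparison. Its log2 differences in the EZ were -0.24 (95% interval -0.83 to 0.34, adjusted p = 0.522) at day 3 and 0.21 (95% interval -0.36 to 0.79, adjusted p = 0.549) at day 7. Without mice 21 and 35 the day 7 value was -0.528 (adjusted p = 0.248), the opposite direction, and also not called. The day 7 kainate mice were widely spread, at 4.23, 7.72, 16.8 and 11.4 CPM, and overlapped the saline mice at 10.3, 4.17, 13.4 and 6.91 CPM.

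Tnr, tenascin-R, the glycoprotein that links lecticans to one another, stayed at a high level in every group. The day 3 EZ values were 403, 399, 335 and 379.9 CPM with saline and 329, 329, 395 and 397 CPM with kainate, and the groups overlapped. The log2 difference was -0.07 (95% interval -0.28 to 0.15, adjusted p = 0.656), an interval that leaves out a change of 1.5-fold (0.585 on the log2 scale) in either direction. The same held in the EZ at day 7, with 0.20 (95% interval -0.01 to 0.42, adjusted p = 0.114), and in the PIZ at day 3, with 0.08 (95% interval -0.14 to 0.30, adjusted p = 0.661).

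The 2 hyaluronan synthases moved in opposite directions. Has2, the synthase that makes long hyaluronan chains, was close to the detection limit in saline mice, with 12, 10, 4 and 1 counts in the day 3 EZ libraries, or 0.5403, 0.461, 0.177 and 0.0487 CPM. With kainate the counts were 298, 132, 78 and 173, or 11.4, 5.05, 3.28 and 6.28 CPM. The log2 fold change was 4.37 (adjusted p = 6.12e-07, SE 0.60), about 20.7-fold, a size that depends on the few saline counts. Day 7 kainate values were 1.73, 3.82, 5.53 and 5.64 CPM against 0.235 to 0.464 CPM, with a log2 fold change of 3.67 (adjusted p = 3.61e-06, SE 0.60). At PIZ day 3, the kainate values of 0.727, 1.15, 0.999 and 0.906 CPM were all above the saline values of 0.3402, 0.217, 0.232 and 0.319 CPM, but the log2 fold change of 1.76 (adjusted p = 0.0455, SE 0.65) did not pass the threshold. With only the groups compared it did (adjusted p = 0.00101).

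Has3, which makes shorter chains, fell in the EZ from saline values of 3.33, 2.03, 3.88 and 2.97 CPM to 0.765, 0.191, 0.968 and 0.472 CPM at day 3. Those values rest on 20, 5, 23 and 13 counts in the kainate libraries. The log2 fold change was -2.35 (adjusted p = 1.05e-05, SE 0.40), or 5.1-fold. At day 7 it was -1.68 (adjusted p = 0.000263, SE 0.38), with 1.43, 1.33, 0.745 and 0.581 CPM against 2.43 to 5.31 CPM and no overlap. The PIZ groups overlapped at day 3 and the log2 difference was -0.29 (95% interval -0.99 to 0.41, adjusted p = 0.598).

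**Figure D3:**
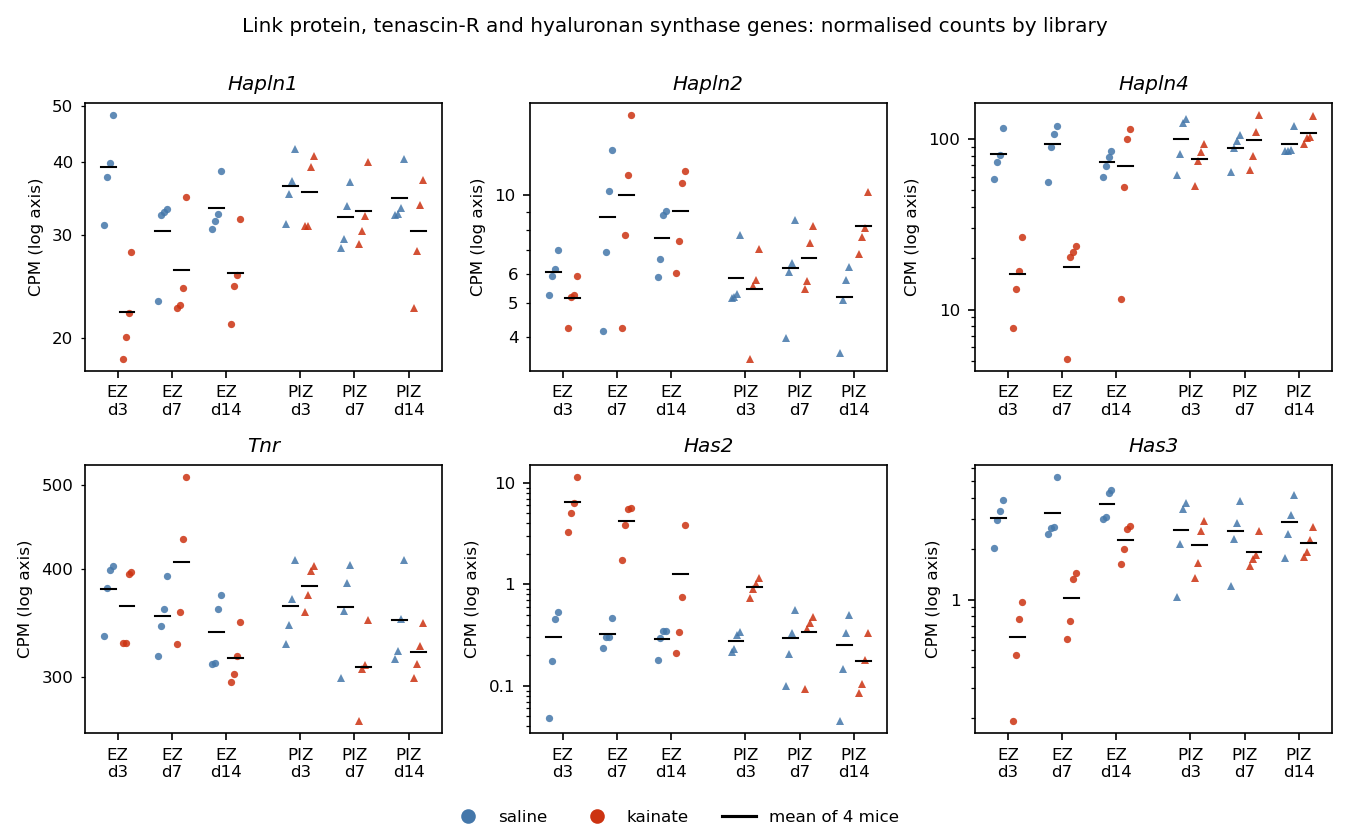
Normalised counts (CPM, log axis) of the link protein genes, Tnr, Has2 and Has3 in each library, by side and day, with saline in blue, kainate in red and the mean of 4 mice as a bar. Hapln4 and Has3 are lower and Has2 higher in every kainate mouse than in every saline mouse of the EZ at days 3 and 7, and the Tnr groups overlap in every panel column.

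Day 7 in the EZ thus had 6 called genes, Acan, Ncan, Vcan and Has2 higher and Hapln4 and Has3 lower, against 32.5% of all genes. The same 6 were those without overlap of the groups (43.8% of all genes). Without mice 21 and 35, 5 of them were called, and Has3, at -1.24 (adjusted p = 0.0436), was not. Over all genes that fit called 2860 in place of 6960. All 6 were also called at day 3, from comparisons with different mice. The 2 genes called at day 3 alone were Bcan and Hapln1. Of these the change between days was called for Bcan, as given above, and was 0.60 (95% interval 0.16 to 1.05, adjusted p = 0.242) for Hapln1.

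**Figure D4:**
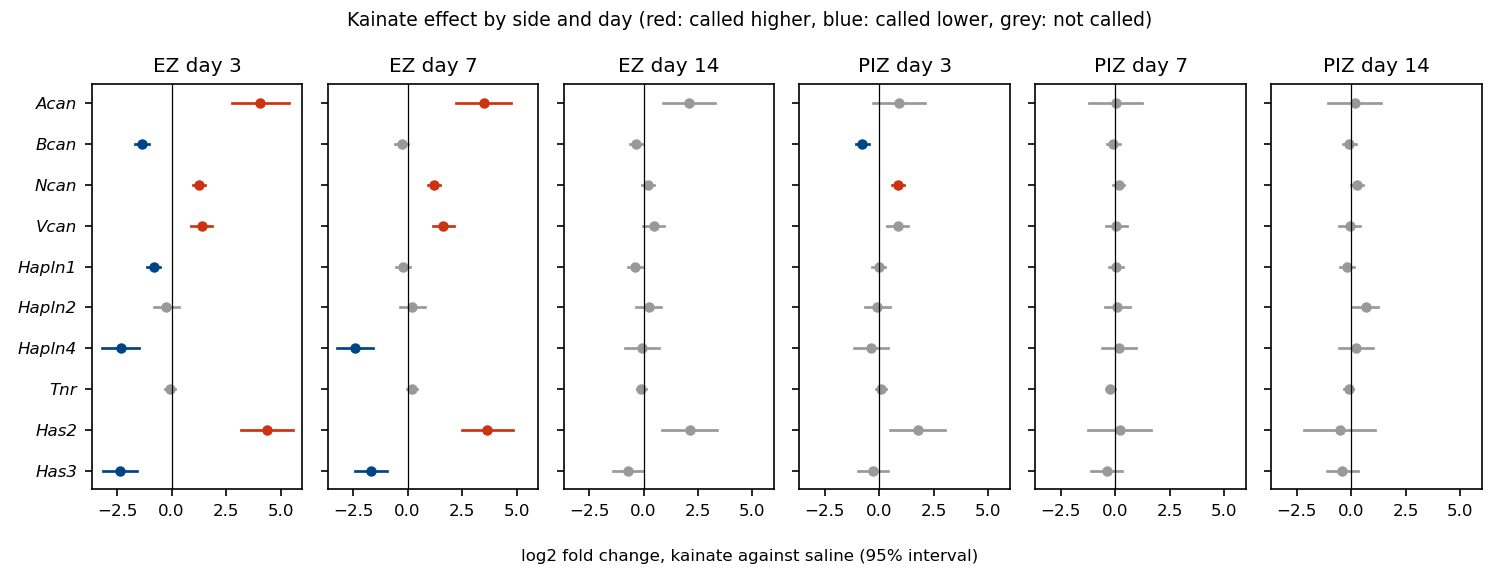
Log2 fold change of kainate against saline with its 95% interval for each gene, in panels by side and day, with called genes in red (higher) or blue (lower) and the rest in grey. The EZ panels of days 3 and 7 hold 14 calls, the PIZ panel of day 3 holds 2, and the other 3 panels hold none.

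By day 14 in the EZ none of the 10 genes was called by edgeR (2.36% of all genes were), 4 had an unadjusted p under 0.05 (18% of all genes), and DESeq2 also called 0. Acan was at 165, 13.2, 11.6 and 17.1 CPM in the kainate mice, where the first value is mouse 27, and at 13.2, 12.99, 12.03 and 10.2 CPM in the saline mice. Mouse 27 likewise lay outside the range of the other kainate mice for Has2 (3.81 CPM, others 0.209 to 0.756), Vcan (67.7 CPM, others 21.3 to 25.96), Ncan (367 CPM, others 201 to 218) and Hapln4 (11.5 CPM, others 52.05 to 115). In each of these 5 genes its value lay inside the range of the day 7 kainate EZ or, for Ncan, just below it. With mouse 27 the log2 fold change of Acan was 2.10 (adjusted p = 0.0349, SE 0.61) and without it 0.21. For Has2 it was 2.13 (adjusted p = 0.0414, SE 0.64) with and 0.545 without the mouse, both uncalled, and over all genes the calls went from 504 to 7.

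Bcan (kainate 150.3, 194, 213 and 187 CPM, saline 223 to 243 CPM) and Has3 (1.99, 1.63, 2.62 and 2.72 against 3.002 to 4.43 CPM) were the 2 genes whose groups still did not overlap, in the direction seen at day 3. Such separation was found for 8% of all genes, and neither was called, at -0.32 (95% interval -0.62 to -0.03, adjusted p = 0.244) for Bcan and -0.72 (95% interval -1.41 to -0.02, adjusted p = 0.278) for Has3. The change of the effect from day 7 to day 14 was called for 1 of the 10 genes, Ncan, at -0.998 (adjusted p = 0.00681, SE 0.19) (0.271% of all genes). That call was lost without any 1 of mice 14, 20, 21, 24, 28, 31, 33, 34, 35, 36, 39, 40 or 89. It was also lost without the filter on low counts and with only the groups compared. The value was between -1.244 and -0.907 in all alternatives run. Without mouse 27 the change from day 7 to day 14 was called for 5: Acan (-3.28), Ncan (-1.24), Vcan (-1.735) and Has2 (-3.12) had a smaller effect, and Hapln4 (2.68) a less negative one. Over all genes that omission raised the calls of this comparison from 58 to 4087.

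The microglial list (Aif1, C1qa and 6 others) summed to 3055 CPM in the EZ of mouse 27 against 435.5 to 663.8 CPM in the other day 14 kainate mice, and the astrocyte list to 11620 against 5445 to 6163 CPM. The list of oligodendrocyte precursors summed to 396.5 against 174.7 to 215.5 CPM, the granule cell list to 506.6 against 709.9 to 1245 CPM, and the CA2 and CA3 list to 200.6 against 278.8 to 382.3 CPM. The interneuron list at 630.8 CPM was within the range of the others (619.7 to 796.9 CPM). The lowest Pvalb value of that group was 2.54 CPM, against 12.35 to 17.01 CPM in the saline EZ at day 14. The part of these cells in the values of mouse 27 was not tested.

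In the PIZ the calls were limited to day 3. At day 7 the 10 log2 differences lay between -0.39 (Has3) and 0.19 (Has2), and 0 genes were called by edgeR or DESeq2 (0.201% of all genes by edgeR), with 1, Tnr, at an unadjusted p under 0.05 (14.5% of all genes). At day 14 there were again 0 calls by either tool (0.014% of all genes), with 1 gene, Hapln2, at an unadjusted p under 0.05 (5.97% of all genes). Its kainate values of 6.83, 7.64, 10.2 and 8.09 CPM were all above the saline values of 5.07, 6.29, 3.62 and 5.78 CPM, with a log2 difference of 0.66 (95% interval 0.07 to 1.24, adjusted p = 0.79), and 7.18% of all genes were separated in that way. At PIZ day 3 the genes without overlap were Bcan, Ncan, Vcan and Has2, 4 of 10, against 30.7% of all genes. From day 3 to day 7 in the PIZ, the change of the effect was called for none by edgeR or DESeq2 (0.0234% of all genes), though 3 genes had an unadjusted p under 0.05 (10.6% of all genes). These were Bcan at 0.70 (95% interval 0.28 to 1.12, adjusted p = 0.188), Ncan at -0.70 (95% interval -1.07 to -0.33, adjusted p = 0.127) and Vcan at -0.81 (95% interval -1.49 to -0.12, adjusted p = 0.399).

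Whether the effect differed between the sides was tested directly. At day 3 none of the 10 genes was called by edgeR or DESeq2 (0.0655% of all genes by edgeR), while 7 had an unadjusted p under 0.05, as did 17.9% of all genes. The differences of the log2 fold changes, EZ minus PIZ, were 3.18 (95% interval 1.47 to 4.88, adjusted p = 0.0628) for Acan, -2.06 (95% interval -3.10 to -1.01, adjusted p = 0.0529) for Has3, -0.79 (95% interval -1.23 to -0.35, adjusted p = 0.0755) for Hapln1 and -1.959 (95% interval -3.08 to -0.83, adjusted p = 0.079) for Hapln4. For the other 3 they were 2.62 (95% interval 0.80 to 4.43, adjusted p = 0.14) for Has2, -0.56 (95% interval -0.98 to -0.14, adjusted p = 0.167) for Bcan and 0.40 (95% interval 0.03 to 0.77, adjusted p = 0.252) for Ncan. Without mouse 44, the kainate mouse with the lowest EZ and highest PIZ level of Acan, the Acan difference was 3.84 (adjusted p = 0.009) and was called, while the calls over all genes went from 14 to 208.

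At day 7, 5 genes were called, against 9.89% of all genes. The differences were 3.48 (adjusted p = 0.00509, SE 0.88) for Acan, 1.07 (adjusted p = 0.00159, SE 0.19) for Ncan, 1.605 (adjusted p = 0.00238, SE 0.35) for Vcan, 3.48 (adjusted p = 0.00966, SE 0.98) for Has2 and -2.54 (adjusted p = 0.00295, SE 0.58) for Hapln4. With both sides of a mouse paired by a replicate block, 4 were called and Acan (adjusted p = 0.0109) was not, with 2356 genes called over the whole table in place of 2115. The count also fell to 0 without mouse 21, whose PIZ library was among those with a raised mossy cell list. It fell to 1 without mouse 20, 35 or 89, to 3 without mouse 33 or 34, and to 0 without mice 21 and 35 together. The calls over all genes fell with it, to 1 without mouse 21 or without both, to between 149 and 221 without mouse 20, 35 or 89, and to 799 and 654 without mouse 33 or 34. Has2 was lost most often of the 5, without any 1 of mice 20, 21, 26, 33, 34, 35 or 89 and with no filter on low counts (adjusted p = 0.0153). The direction of all 5 differences was the same in every one of those fits. At an unadjusted p under 0.05, day 7 had 7 members (40.2% of all genes), the 5 called and 2 uncalled. The uncalled were Tnr at 0.436 (95% interval 0.127 to 0.745, adjusted p = 0.0367) and Has3 at -1.29 (95% interval -2.315 to -0.265, adjusted p = 0.0609). At day 14 no gene was called by either tool for the members, 0% of all genes by edgeR, and 2 members had an unadjusted p under 0.05 (7.3% of all genes), Acan and Has2.

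Hapln4 and Acan moved apart in the same libraries. In the 8 kainate EZ libraries of days 3 and 7, Hapln4 lay between 5.14 and 26.8 CPM and Acan between 30.6 and 339 CPM. Apart from the EZ library of mouse 27 at day 14, the other 39 libraries had Hapln4 at 52.05 to 138 CPM and Acan at 2.74 to 24.6 CPM. Among those 8 libraries, the highest Hapln4 (26.8 CPM, mouse 44) came with the lowest Acan (30.6 CPM), and the lowest Hapln4 (5.14 CPM, mouse 35) with the second highest Acan (247 CPM).

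**Figure D5:**
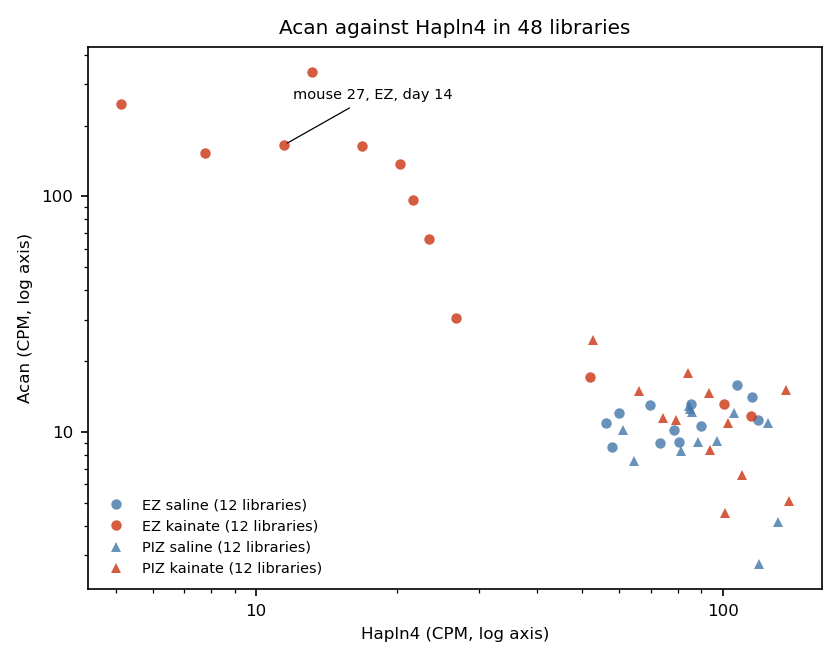
Acan against Hapln4 in the 48 libraries (CPM, both axes log), by side (circles EZ, triangles PIZ) and treatment (blue saline, red kainate). Kainate EZ libraries of days 3 and 7 and that of mouse 27 at day 14 lie at the upper left, with Hapln4 up to 26.8 CPM and Acan from 30.6 CPM, apart from the other 39.

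Several of these genes are neighbours in the genome. In the GRCm39 annotation, Bcan (chr3:87894835-87910177, minus strand) and Hapln2 (chr3:87926800-87934890, minus) are 16.6 kb apart, and Vcan (chr13:89803431-89890814, minus) and Hapln1 (chr13:89686581-89759950, plus) 43.5 kb. Ncan (chr8:70538926-70573523, minus) and Hapln4 (chr8:70536106-70543533, plus) overlap tail to tail by 4608 bases, with 1255 exonic bases in common, 12.6% of the Ncan and 31.3% of the Hapln4 exon length. Per the study's methods the counting used strand, but the strand settings given for alignment and counting differ and could not be checked on reads, so the assignment of reads in this overlap is uncertain. At days 3 and 7 in the EZ, Ncan was higher and Hapln4 lower. The neighbours did not move as pairs in the EZ at day 3: Bcan was called lower and Hapln2 not called, Vcan was higher and Hapln1 lower. The remaining members are Acan (chr7:78702964-78764847, plus), Tnr (chr1:159351339-159759299, plus), Has2 (chr15:56528342-56557999, minus) and Has3 (chr8:107596874-107611198, plus), and all 10 are protein coding.

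Calls in the gene lists are set beside the share of all genes called in the same direction, which was 16.1% higher and 8.61% lower in the EZ at day 3, 20.6% and 11.9% at day 7, and 7.12% and 1.57% in the PIZ at day 3. Of 13 tested in the list of hyaluronan turnover and receptors, 7 rose and 0 fell in the EZ at day 3 (median log2 fold change 0.85), 8 and 0 at day 7 (0.854), and 5 and 0 in the PIZ at day 3 (0.729). In the EZ at day 3 the smallest p-values were those of Ugdh, which makes the UDP-glucuronate that hyaluronan synthesis uses (1.28, SE 0.176, adjusted p = 5.68e-07), and of Hmmr, a hyaluronan-binding protein of dividing cells (3.13, SE 0.466, adjusted p = 1.89e-06). In the PIZ at day 3 they were those of Cd44, the main cell surface hyaluronan receptor (4.63, SE 0.704, adjusted p = 1.13e-05), and Hmmr (3.27, SE 0.525, adjusted p = 2.48e-05).

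Of 21 enzymes that build chondroitin sulfate chains, 4 rose and 3 fell in the EZ at day 3 (median 0.084), 4 and 2 at day 7 (0.025), and 1 and 1 in the PIZ at day 3 (0.025). Of all genes, 16.1% were called higher and 8.61% lower in the EZ at day 3, 20.6% and 11.9% at day 7, and 7.12% and 1.57% in the PIZ at day 3. Ust, a uronyl sulfotransferase, had a log2 fold change of -1.25 in the EZ (SE 0.139, adjusted p = 2.4e-08) and -0.80 in the PIZ (SE 0.137, adjusted p = 6.51e-05). Chsy1, a chain polymerase, rose by 1.04 in the EZ (SE 0.167, adjusted p = 5.67e-06), and Chst7, a sulfotransferase, by 1.31 in the PIZ (SE 0.273, adjusted p = 0.000569).

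Among 10 proteases that cleave lecticans, 3 rose in the EZ at day 3 (median 0.308), 4 at day 7 (0.596) and 1 in the PIZ at day 3 (-0.011), and 0 fell. Of all genes, 16.1%, 20.6% and 7.12% were called higher. The aggrecanases Adamts5 (2.32, SE 0.434, adjusted p = 4.31e-05) and Adamts1 (2.05, SE 0.449, adjusted p = 0.000294) had the smallest p-values in the EZ, and the gelatinase Mmp2 was the one called in the PIZ (1.56, SE 0.427, adjusted p = 0.00704). Of 11 other proteoglycans, link proteins and tenascins, 7 rose and 1 fell in the EZ at day 3 (median 1.424), 9 and 1 at day 7 (1.655), and 3 and 0 in the PIZ at day 3 (0.435), beside the same shares of all genes called higher. Fbln2, a lectican-binding fibulin, was up in the EZ (2.69, SE 0.365, adjusted p = 4.61e-07) and the PIZ (2.45, SE 0.365, adjusted p = 8.27e-06). Tenascin-C (Tnc), the paralogue of Tnr, rose by 3.86 in the EZ (SE 0.563, adjusted p = 1.36e-06), where Tnr itself was not called, and biglycan (Bgn) by 1.98 in the PIZ (SE 0.473, adjusted p = 0.00223).

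Of 12 receptors and net-bound proteins, 3 rose in the EZ at day 3 (median 0.119), 3 rose and 1 fell at day 7 (-0.197), and 1 rose in the PIZ at day 3 (0.205), where 16.1%, 20.6% and 7.12% of all genes were called higher. The smallest p-values in the EZ were those of Nptx2, a secreted pentraxin that clusters glutamate receptors (3.41, SE 0.444, adjusted p = 2.7e-07), and Ptprf, a LAR family receptor phosphatase (1.17, SE 0.238, adjusted p = 0.000121). Nptx2 was also the one gene called in the PIZ (1.59, SE 0.419, adjusted p = 0.00518).

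Markers of the cells that make or carry nets moved in the same libraries. Of 12 interneuron genes, 8 fell and 0 rose in the EZ at day 3 (median log2 fold change -2.036), with summed levels of 284.8 to 512.5 CPM against 620.1 to 837.5 CPM in saline, and 9 fell at day 7 (median -2.048). Of all genes, 8.61% and 11.9% were called lower there. Pvalb, the marker of the interneurons that most nets surround, was 0.191 to 3.92 CPM in the EZ of kainate mice and 12.3 to 16.3 CPM in saline mice at day 3. In the PIZ at day 3, where 1.57% of all genes were lower, 1 of the 12 fell, the neuregulin receptor Erbb4. The list median there was -0.493. Its summed levels were 629.7 to 672 CPM with kainate and 717 to 1007 CPM with saline, without overlap. Of 8 genes of CA2 and CA3 pyramidal cells, 4 fell in the EZ at both days (medians -0.829 and -1.004; 8.61% and 11.9% of all genes), and 0 moved in the PIZ at day 3. Rgs14, which marks CA2, was 22.96 to 56.6 CPM with kainate against 83.01 to 141.7 CPM with saline in the EZ at day 3.

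Of 8 genes of oligodendrocyte precursors, cells that also make versican, 6 rose in the EZ at day 3 (median 1.128; summed levels 412.7 to 568.3 against 219.6 to 260 CPM), 8 at day 7 (1.433) and 3 in the PIZ at day 3 (0.686), where 16.1%, 20.6% and 7.12% of all genes were called higher. Their defining gene Pdgfra was 56.2 to 134.1 CPM with kainate and 45.2 to 52.3 CPM with saline in the EZ at day 3, but in the PIZ it was 38.3 to 72.5 CPM with kainate and 48.7 to 62.7 CPM with saline. Of 9 astrocyte genes, 4 rose and 1 (the glutamate transporter Slc1a2) fell in the EZ at day 3, 6 rose at day 7 and 4 rose in the PIZ at day 3, beside the same shares of all genes. Gfap, the astrocyte filament gene, was 4710 to 5565 CPM in the EZ and 4107 to 4549 CPM in the PIZ of kainate mice at day 3. In saline mice it was 1325 to 3307 CPM on the injected and 267.9 to 409.1 CPM on the other side.

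Of 8 microglial genes, 7 rose in the EZ at day 3, 8 at day 7 and 8 in the PIZ at day 3, and of 9 vessel and fibroblast genes 8, 8 and 0, against 16.1%, 20.6% and 7.12% of all genes called higher. Of 6 granule cell genes, 2 (Calb1 and Dsp) fell in the EZ at day 3 (median -0.812), 2 at day 7 and 1 (Calb1) in the PIZ at day 3. Prox1 was 204.3 to 271.6 CPM with kainate and 229.2 to 296.6 CPM with saline in the EZ at day 3. Of 10 oligodendrocyte genes, 1 (Aspa) fell at day 3 and 3 rose at day 7 in the EZ, and Hapln2 was not called in either. Of 3 mossy cell genes, 1 (Drd2) fell in the EZ at day 3 and 1 rose and 1 fell at day 7, and of 3 choroid plexus genes tested, 1 (Kl) fell there. The share of all genes called lower was 8.61% in the EZ at day 3, 11.9% at day 7 and 1.57% in the PIZ at day 3. The single genes named from the cell type lists, other than the defining marker of each type, were picked after their values were seen. The part of these cells in the changes of the 10 genes was not tested.

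Over the 48 libraries, the genes whose log2 CPM followed each member most closely were, by Pearson r, Hr (0.938) and Svil (0.937) for Acan, Prex1 (0.963) and Ampd3 (0.952) for Ncan, and Itgb1 (0.981) and Rsu1 (0.979) for Vcan. For Bcan they were Prdm16os (0.931) and Cldn10 (0.918). Hapln4 was followed by Pcnx2 (0.975) and Hs3st4 (0.970), Hapln1 by Lix1 and St8sia4 (both 0.757), and Hapln2 by Septin4 (0.840) and Qdpr (0.839). The closest to Has2 were Wwtr1 (0.933) and Palld (0.932), and to Has3 Kcnh7 (0.842) and Gm20646 (0.830). Tnr had the loosest neighbours, Gm52968 (0.699) and Capn3 (0.681). The libraries share mice, sides and treatment, so these values describe likeness across this set and carry no test.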

How the data were processed

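The table analysed holds the raw counts per gene that the authors deposited. Per the labels and the study's methods, polyadenylated RNA was sequenced in stranded libraries, trimmed with fastp 0.20.1, aligned with HISAT2 2.2.1 to GRCm39 and counted with featureCounts of Subread 1.6.4, counting with strand, including multi-mapped reads by their primary alignment and giving a read over several genes to the one it overlapped most. A multi-mapped read can thus be placed at the wrong copy of a near-identical gene.

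Libraries were grouped by the labels into 12 groups of 4. Genes with low counts were dropped with filterByExpr, libraries were scaled by TMM, and 1 model with 12 group means was fitted over all 48 libraries with edgeR 4.0.16 (R 4.3.3, limma 3.58.1) by its quasi-likelihood test. P-values were adjusted over all 21390 genes by the method of Benjamini and Hochberg, and all tests were two-sided. A call needed a fold change over 1.5 and an adjusted p under 0.01. The SE was worked back from each test, as the size of the log2 fold change over the square root of its F statistic. The 95% intervals are the estimate ± 1.96 SE, a normal approximation. Counts in the tested genes made up 99.92% of the total. Symbols, positions and exon lengths came from Gencode release 39 for mouse. The comparisons of kainate with saline were tested per side and day, and differences between sides or days as contrasts of the same model. The libraries of a mouse share the animal; the correlation of the residuals of the sides was -0.054 to 0.376, over 0.1 in 20 of 24 mice, so that the comparison between sides was repeated with the mouse as a replicate block. In the comparisons of kainate with saline on 1 side and day, each library is a different animal. The spread was estimated over all 48 libraries, taking both sides of a mouse as independent. P-values of the comparisons between sides thus leave out the pairing, except with the replicate block.

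Alternatives were an adjusted p limit of 0.05, scaling by RLE size factors or by library size only, no filter on low counts, a fit of only the groups compared, DESeq2 1.42.0, the replicate block and leaving out each mouse in turn. Leaving out mice 21 and 35 together was added after seeing the data. The 10 genes and all gene lists were chosen with earlier results of these data known. The text names all 10, the 2 genes of smallest p among those called in each pathway list in the EZ and PIZ at day 3, the defining marker of each cell type, and the 2 genes with the highest Pearson r to each member in log2 CPM (prior count 2). The study's methods give an age range for the mice, which the labels do not, so they are called adult here.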

Additional observations from a re-analysis of the deposited data

Results flagged for a closer look

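In groups of 4 mice, a single value far from the other 3 was looked for in each of the 10 genes and 12 groups (Dixon's ratio of the gap to the range). On linear CPM this met 17 of 120 groups, where chance gives about 1 in 20. On log2 CPM, tried after seeing the data, 13 of the same groups met it, and Vcan and Has2 in the EZ of mouse 27, Vcan in mouse 28 and Hapln1 in mouse 23 did not. The EZ library of kainate mouse 27 at day 14 accounted for 4 of them, with Acan at 165.22 CPM (others 11.6 to 17.1), Ncan at 366.97 CPM (others 201 to 218), Vcan at 67.658 CPM (others 21.3 to 25.96) and Has2 at 3.8066 CPM (others 0.209 to 0.756). The PIZ library of saline mouse 39 at day 14 accounted for 3, with Acan at 2.7417 CPM (others 12.2 to 12.9), Ncan at 175.96 CPM (others 224 to 231) and Hapln4 at 119.51 CPM (others 84.6 to 86.0).

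The other single values were in saline mice with 2 exceptions. The exceptions, both in the kainate EZ at day 7, were mouse 35 for Hapln4, at 5.1439 CPM (others 20.4 to 23.5), and mouse 23 for Hapln1, at 34.828 CPM (others 22.5 to 24.4). In the saline EZ, Acan was 14.037 CPM in mouse 18 at day 3 (others 8.64 to 9.06) and 15.914 CPM in mouse 89 at day 7 (others 10.6 to 11.2). Mouse 20 at day 7 had Hapln1 at 23.171 CPM (others 32.5 to 33.3) and Has3 at 5.3078 CPM (others 2.43 to 2.68), and mouse 31 at day 14 had Ncan at 225.31 CPM (others 211 to 213). In the saline PIZ, mouse 28 at day 14 had Vcan at 28.18 CPM (others 25.1 to 25.6) and Hapln1 at 40.562 CPM (others 32.5 to 33.4), and mouse 41 at day 3 had Hapln2 at 7.7456 CPM (others 5.16 to 5.30).

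The kainate effect differed between groups, by a test of the difference in edgeR, in 7 cases. Between the sides at day 7, EZ minus PIZ, the log2 differences were 3.477 for Acan, 1.07 for Ncan, 1.605 for Vcan, 3.476 for Has2 and -2.545 for Hapln4. In the EZ, the effect on Bcan differed by 1.085 between day 7 and day 3, and that on Ncan by -0.998 between day 14 and day 7.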

How the results depend on the processing

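All 14 calls in the EZ at days 3 and 7 held in each of 13 alternatives, as did Ncan in the PIZ at day 3, and Bcan there held in 12 of 13 (adjusted p = 0.0291 with only the groups compared, in edgeR). Has3 at day 7 was lost in a further fit without mice 21 and 35 together. Of 2005 alternative values of the 10 genes, that fit aside, 76 changed sign, none of them called in either fit, to values of at most 0.302 in size. The cause of the changes below was not tested. With an adjusted p limit of 0.05 the members called were 2 in the EZ at day 14, 4 in the PIZ at day 3 and 3 for day 14 minus day 7 in the EZ. The PIZ at day 3 gave 3 by library size only and with DESeq2 (Vcan gained), and 3 with only the groups compared (Vcan and Has2 gained, Bcan lost). Day 7 minus day 3 in the EZ gave 0 by library size only and with only the groups compared. Day 14 minus day 7 in the EZ gave 0 without the filter and with only the groups compared, and 2 with DESeq2. Day 7 minus day 3 in the PIZ gave 1 (Vcan, -0.82) with only the groups compared. By library size only, Tnr in the EZ at day 3 was 0.061, Hapln1 in the PIZ at day 3 0.056, Hapln2 for day 14 minus day 7 -0.047, and Hapln1 and Tnr between saline sides 0.011 and 0.014. A fit without mice 21 and 35 of day 7 together, chosen after seeing the data, left 5 calls in the EZ at day 7, 0 between the sides at day 7, 0 for day 7 minus day 3 and 0 for day 14 minus day 7 in the EZ. In it uncalled values changed sign to -0.528 (Hapln2) and -0.045 (Tnr) in the EZ at day 7, -0.018 (Hapln4) and -0.179 (Has2) in the PIZ at day 7, -0.653 (Hapln2) between the sides, -0.473 (Vcan), -0.28 (Hapln2) and 0.259 (Hapln4) for day 7 minus day 3 in the EZ and 0.057 (Has3) in the PIZ. Over all genes it gave 2860 in the EZ at day 7, 69 in the PIZ, 1 between the sides and 1 for day 14 minus day 7. The replicate block gave 4 calls between the sides at day 7 and changed no other call. Leaving out 1 mouse gave 0 to 1 calls for EZ minus PIZ at day 3 and 0 to 5 at day 7, 0 to 1 for the EZ at day 14 (Acan 2.43 without mouse 14, Has2 2.49 without mouse 40), 0 to 1 for day 7 minus day 3 on either side (1 in the PIZ without mouse 42) and 0 to 5 for day 14 minus day 7 in the EZ (5 without mouse 27, 3 without mouse 23 or 26). Bcan for day 7 minus day 3 was lost in 11 of 16 such fits.

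Leaving out 1 mouse also changed the sign of uncalled values, which ranged as follows. In the PIZ at day 3, Hapln1 was -0.112 to 0.039 and Hapln2 -0.245 to 0.066, and in the EZ at day 7 Hapln2 was -0.15 to 0.499. In the PIZ at day 7, Acan was -0.302 to 0.218, Vcan -0.017 to 0.119, Hapln1 -0.07 to 0.111, Hapln2 -0.069 to 0.283, Hapln4 -0.064 to 0.297 and Has2 -0.104 to 0.684. In the EZ at day 14, Ncan was -0.03 to 0.305, Vcan -0.092 to 0.646 and Hapln4 -0.428 to 0.28, and in the PIZ Acan -0.151 to 0.422 and Has2 -1.027 to 0.072. For EZ minus PIZ, Hapln2 at day 7 was -0.199 to 0.387, and at day 14 Acan was -0.212 to 2.438, Ncan -0.192 to 0.037, Hapln4 -0.532 to 0.038 and Tnr -0.011 to 0.053. For day 7 minus day 3, Ncan was -0.102 to 0.074 and Hapln4 -0.284 to 0.301 in the EZ, and Hapln1 -0.033 to 0.15 and Has3 -0.331 to 0.169 in the PIZ. For day 14 minus day 7 in the EZ, Bcan was -0.122 to 0.037, Hapln1 -0.266 to 0.017 and Hapln2 -0.259 to 0.394. Between saline sides, Hapln1 was -0.045 to 0.022 and Tnr -0.016 to 0.01.

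Over all genes the counts called moved by more than 1.5 times in the cases that follow. Leaving out 1 mouse gave 7 to 893 for 504 in the EZ at day 14 (lowest without mouse 27), 7 to 76 for 43 in the PIZ at day 7, 2 to 208 for 14 (highest without mouse 44) and 1 to 3752 for 2115 (lowest without mouse 21) between the sides at days 3 and 7, 8 to 83 for 31 and 1 to 4087 for 58 (highest without mouse 27) between days in the EZ, 2 to 9 for 5 between days in the PIZ and 1 to 3 for 5 between saline sides. The limit of 0.05 gave 1030 for 504 in the EZ at day 14, 2818 for 1858 in the PIZ at day 3, 229 for 43 at day 7 and 6 for 3 at day 14, 127 for 14 and 4387 for 2115 between the sides at days 3 and 7, 104 for 31 and 2378 for 58 between days in the EZ, 16 for 5 in the PIZ and 9 for 5 between saline sides. Only the groups compared gave 3847 for 6960 in the EZ at day 7, 0 in the EZ at day 14, 154 in the PIZ at day 7, 0 and 1159 between the sides, 3 and 0 between days in the EZ, 158 in the PIZ and 160 between saline sides. DESeq2 gave 195 and 9 in the PIZ at days 7 and 14, 99 and 2 between the sides at days 3 and 14, 98 and 851 between days in the EZ, 29 in the PIZ and 23 between saline sides. Day 14 minus day 7 gave 95 by library size only and 4 without the filter, and the replicate block gave 38 between the sides at day 3 and 12 between saline sides. Has2 rested on 1 to 12 counts a library in the saline EZ at day 3, and Has3 on 5 to 23 counts in the kainate EZ at day 3.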
